A study of Mus musculus with 12 samples.

Results

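The genes described here are 33 protein-coding genes for enzymes and membrane proteins of the lysosome, chosen by name, and all 33 were listed in both of the tables analysed. Of the genes in the tables, 13331 were listed for wild-type cells, 13027 for knockout cells and 12590 for both. The cells were C2C12, an established mouse myoblast line, and each genotype gave libraries of total RNA and of polysomal RNA, which was taken from purified polysomes and so from mRNAs loaded with several ribosomes. Values were analysed for 11 libraries: 3 of total and 3 of polysomal RNA from wild-type cells, and 2 of total and 3 of polysomal RNA from Ddx27-/- cells, in which the gene for a nucleolar DEAD-box RNA helicase is knocked out. The labels name no clone, drug or medium, and do not tell separate cultures from repeat libraries, so the p-values measure only the spread between these libraries. Knockout libraries are numbered by their table columns, because the column names match the labels by group only. The labels name 3 knockout total samples and the table holds 2 such columns, so 1 of them is not analysed here, and which one is not known.

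Lysosomes are the acidic organelles in which cells break down protein, glycans and lipids. Their soluble hydrolases are made on the endoplasmic reticulum and receive a mannose-6-phosphate tag in the Golgi. The phosphotransferase subunit encoded by Gnptg takes part in that step. Mannose-6-phosphate receptors then carry the hydrolases onward, while membrane proteins such as Lamp1 and Lamp2 coat the organelle. Many of these genes carry the CLEAR element, a promoter motif built on CACGTG that the MiT/TFE transcription factors TFEB, TFE3 and MITF bind, and in muscle the organelle is known for glycogen breakdown by acid alpha-glucosidase (Gaa) and for the turnover of autophagic cargo.

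The 11 libraries held 13683674 to 27347878 reads in listed genes, and the member with the fewest reads in any library was Manba with 36. Reads of 4 gene models that pick up ribosomal RNA (called ribosomal RNA-like here) made up 0.674 to 14.5% of the wild-type polysomal libraries (replicate 2 highest), 0.385 to 32.7% of the knockout polysomal libraries (replicates 1 and 2 highest, at 23.1 and 32.7%) and 0.0535 to 0.135% of the total RNA libraries. Ddx27 checked the labels: its normalised read counts were 150.4, 144 and 139 in wild-type total RNA and 39.7 and 45.04 in knockout total RNA. They were 213, 139 and 215 in wild-type polysomal RNA and 52.6, 40.98 and 31.3 in knockout polysomal RNA, below every wild-type library. Of 6 myoblast markers, 6 were in the wild-type table and 5 in that of the knockout, where Pax7 was not listed. Myod1, the transcription factor that defines the lineage, had 137, 137 and 177 in wild-type total RNA against 0.363 and 1.13 in knockout total RNA, and was at 0 in 2 of 3 knockout polysomal libraries. The knockout libraries nearly lacked a defining marker of the labelled cell type, and the part of this in the differences between genotypes given below was not tested.

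Per kilobase of gene length, the levels of the 33 genes spanned from Idua to Cd63 in wild-type total RNA. The tetraspanin gene Cd63 had 584 ± 63.9 normalised read counts per kb (SD, n = 3), Psap 552 ± 35.8, Lamp1 453 ± 52.3, Ctsl 372 ± 7.01 and Ctsd 308 ± 26.1. The values of Cd63 and Psap differed by less than their SDs, and those of the other neighbours in this order by more than either SD. At the other end stood Sgsh with 2.60 ± 0.194, Manba with 2.13 ± 0.167 and Idua with 1.49 ± 0.513. Cd63 had the highest level in all 4 groups, whereas Psap, second in wild-type total RNA, was the fifth in wild-type polysomal RNA at 153 ± 55.4 normalised read counts per kb. Reads of the 33 genes together made up 0.933 to 0.988% of each wild-type total library and 0.332 to 0.561% of each wild-type polysomal library. In the knockout their share was 1.30 to 1.41% of total and 0.505 to 0.885% of polysomal libraries, so in both genotypes every polysomal library had a smaller share than every total library. Leaving the ribosomal RNA-like gene models out of the totals gave 0.388 to 0.596% in wild-type and 0.712 to 0.889% in knockout polysomal RNA. The 95% Wilson interval of such a share reached at most 0.00448 percentage points to either side, which covers counting error only.

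**Figure D1:**
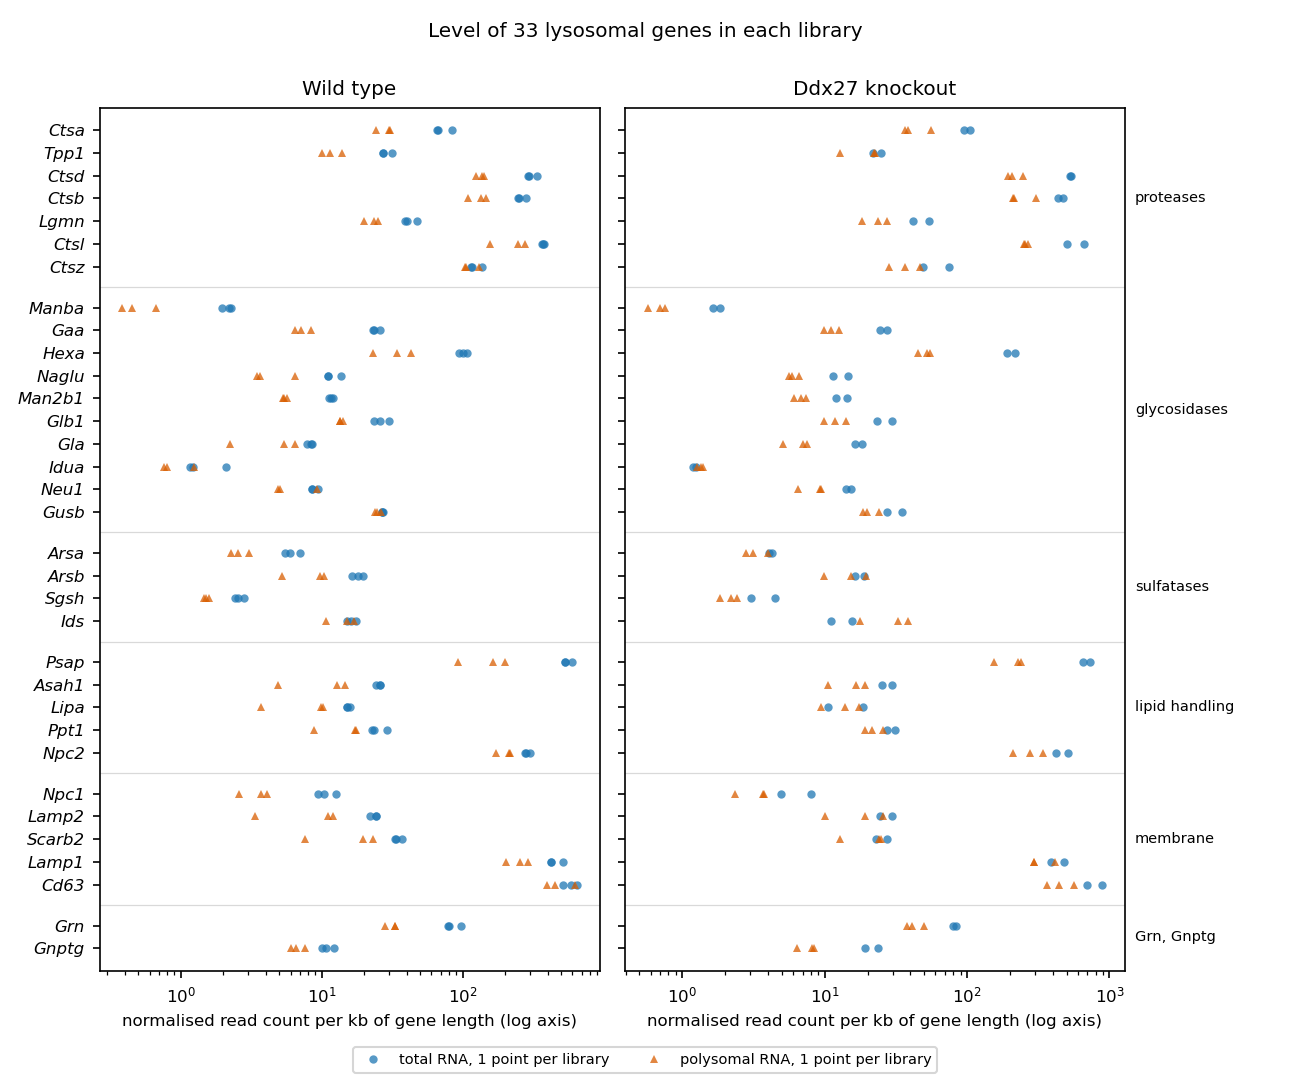
Normalised read count per kb of gene length (log axis) of each of the 33 lysosomal genes, grouped by role, in wild-type (left) and knockout (right) libraries; each point is 1 library, blue for total and orange for polysomal RNA. For 28 of 33 genes in the wild type and 25 of 33 in the knockout, every polysomal point lies to the left of every total point.

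Some of the members hold CACGTG, on which the CLEAR element is built, in their promoters. That element is known from lysosomal genes, so a match is not independent of the choice by name. The genes it is compared with include genes not listed for these cells. RefSeq promoter windows of GRCm38.p6, which run from 250 bases before to 50 after an annotated start, were at hand for 30 of 33 members (there was none for Ctsb, Asah1 and Npc1). CACGTG, a palindrome that reads the same on both strands, lay in a window of 12 of 30 members (40%) against 8.09% of 27025 genes. The longer CACGTGAC, searched on both strands and always containing CACGTG, lay in 10 of 30 members (33.3%) against 2.55% of genes. The 12 genes were the proteases Ctsa, Ctsd, Ctsl and Lgmn, the glycosidases Gaa, Gla, Glb1 and Naglu, the sulfatases Arsa and Sgsh, Lamp1 and Gnptg, and none was among the lipid hydrolases and carriers. In the lines below the capitals mark CACGTG. They show the densest cluster and the setting of the motif in 4 enzyme genes described further on: Lamp1 (plus strand) at chr8:13159088-13159163 with 4 copies, Ctsd (minus strand) at chr7:142387893-142387952, Gla (minus strand) at chrX:134601167-134601226, Naglu (plus strand) at chr11:101069994-101070053 and Sgsh (minus strand) at chr11:119355507-119355566.
Lamp1: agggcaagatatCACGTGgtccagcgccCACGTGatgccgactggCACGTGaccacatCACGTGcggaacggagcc
Ctsd: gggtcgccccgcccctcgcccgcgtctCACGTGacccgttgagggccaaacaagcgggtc
Gla: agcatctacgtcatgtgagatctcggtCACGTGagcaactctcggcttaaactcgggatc
Naglu: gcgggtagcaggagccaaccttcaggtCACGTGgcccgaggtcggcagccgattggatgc
Sgsh: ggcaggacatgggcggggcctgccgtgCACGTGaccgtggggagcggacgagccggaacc
In Lamp1 the first copy began 61 bases and the last 15 bases before the annotated start. In Ctsd the copy shown began 98 bases before the start, in Naglu 73, in Sgsh 29 and in Gla 194. A match is a description of letters, not of binding.

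Polysomal RNA of wild-type cells held less of these mRNAs than total RNA. Of the 33 genes, 21 were lower and 0 higher at an adjusted p under 0.05 (limma), where 13.8% of the 12380 genes tested were lower and 8.89% higher. All 33 had a negative log2 fold change, as had 51.1% of all genes, and their median was -1.05 against -0.02 for all genes. No wild-type polysomal library reached the lowest total library for 28 of the 33, an arrangement found for 27.7% of all genes. The called members came from every role: 5 of 7 proteases, 6 of 10 glycosidases, 3 of 4 sulfatases, 2 of 5 lipid hydrolases and carriers, 3 of 5 membrane proteins, and both Grn and Gnptg. At an unadjusted p under 0.05 there were 27. The share of all genes at that unadjusted cut was not counted, here or below, so such counts have no background.

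These counts rest on few libraries. With any 1 of the total libraries left out, 9 or 10 members were called lower (9 without replicate 1, 10 without replicate 2 and 9 without replicate 3). With polysomal replicate 2 left out, 29 were called. Over all genes, 420 of 12149, 437 of 12147 and 378 of 12152 were lower without total replicates 1, 2 and 3. Without polysomal replicate 2 it was 3012 of 12222. Under all 13 alternative settings and left-out libraries, 8 of the 21 stayed called: Ctsa, Ctsd, Tpp1, Gaa, Hexa, Manba, Npc1 and Grn. The median of the 33 genes against the mean of total RNA was -0.83, -1.24 and -0.82 in polysomal replicates 1 to 3, so the library with the largest share of ribosomal RNA-like reads was also the lowest for these genes. Without it the median log2 fold change of the 33 was -0.82. The 33 genes had a median length of 3481 bases against 3636 for all genes tested, and with the trend of fold change on gene length removed, 21 were lower, with Ctsl called in place of Sgsh.

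**Figure D2:**
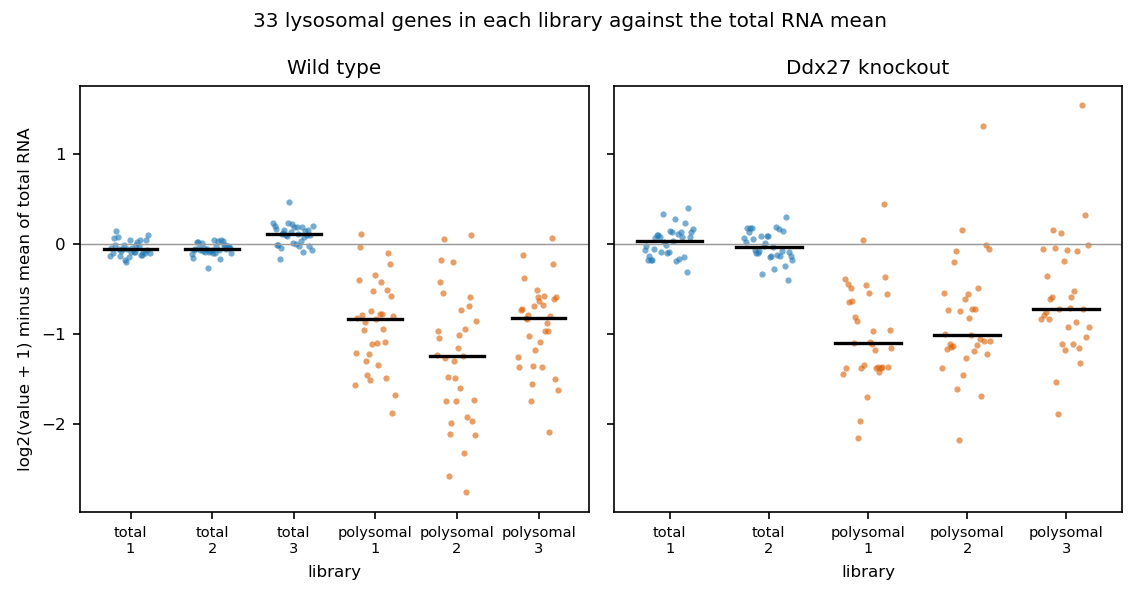
Each point is 1 of the 33 lysosomal genes, as log2(value + 1) minus the mean of that gene over the total libraries of the same genotype; black bars are medians. The medians of the polysomal libraries lie between -0.72 and -1.24, and those of the total libraries close to 0.

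Among the proteases, Ctsa encodes cathepsin A, the protective protein that keeps neuraminidase and beta-galactosidase stable. Its normalised read counts were 318, 324 and 410.3 in total and 117, 148 and 146 in polysomal RNA, a log2 fold change of -1.35 ± 0.19 (SE, adjusted p = 0.00465). No polysomal library came near the total ones. Tpp1 encodes the tripeptidyl peptidase lost in a neuronal ceroid lipofuscinosis. It had 94.04, 93.9 and 110.3 in total and 39.8, 35.05 and 48.5 in polysomal RNA, a change of -1.26 ± 0.19 (SE, adjusted p = 0.00567), again with no overlap. The aspartic protease gene Ctsd had 744, 728 and 848 in total and 357, 313 and 342 in polysomal RNA, a change of -1.19 ± 0.16 (SE, adjusted p = 0.00429). Its 3 polysomal values were close together, at 43.7% of the total level. Ctsb and Lgmn, for cathepsin B and for legumain, the endopeptidase that processes other cathepsins, fell as well, by 1.01 and 0.86 on the log2 scale. The cysteine protease gene Ctsl, among the most abundant, did not pass: it had 727, 744 and 717 in total and 545, 307 and 487 in polysomal RNA, -0.75 ± 0.24 (SE, adjusted p = 0.0581), with polysomal replicate 2 the lowest. Ctsz, for the carboxypeptidase cathepsin Z, stood apart from the other proteases. Its values of 163, 168 and 196 in total and 151, 188 and 149.9 in polysomal RNA overlapped, at -0.11 ± 0.17 (SE, adjusted p = 0.648).

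Glycosidases remove sugars from glycans, glycogen and glycolipids. Manba, for beta-mannosidase, had the largest change of the group and low values, 12.5, 14.1 and 14.6 in total and 4.27, 2.90 and 2.47 in polysomal RNA. Its log2 fold change was -1.83 ± 0.22 (SE, adjusted p = 0.00315), made smaller by the 1 added before taking logs. Gaa, for acid alpha-glucosidase, had 114, 117 and 128 in total and 31.9, 35.4 and 41.6 in polysomal RNA, a change of -1.70 ± 0.17 (SE, adjusted p = 0.00185), which left 30.8% of the total level. Hexa, for the alpha subunit of beta-hexosaminidase, had 186, 175 and 199.5 in total and 79.8, 42.8 and 63.2 in polysomal RNA, a change of -1.62 ± 0.24 (SE, adjusted p = 0.00576). For both genes the polysomal libraries lay well below the total ones, and for Hexa polysomal replicate 2 was the lowest. Naglu, for an enzyme of heparan sulfate breakdown, had 29.5, 29.6 and 36.4 in total and 9.25, 17.1 and 9.63 in polysomal RNA, a change of -1.38 ± 0.26 (SE, adjusted p = 0.0124). Here polysomal replicate 2 was the highest of the 3, and the call was lost without any 1 total library (adjusted p = 0.0635, 0.0621 and 0.0760). Man2b1 and Glb1, for alpha-mannosidase and beta-galactosidase, fell by 1.06 and 0.92. Gla, Idua, Neu1 and Gusb did not pass, with values from -0.89 ± 0.36 for Gla to -0.11 ± 0.15 for Gusb, the beta-glucuronidase gene.

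Of the sulfatase genes, Arsa, Arsb and Sgsh fell, by 1.18, 1.13 and 0.73 on the log2 scale. Ids, for the iduronate sulfatase whose loss causes Hunter syndrome, did not pass, and its values of 77.4, 81.5 and 88.4 in total and 76.7, 54.6 and 86.1 in polysomal RNA overlapped, at -0.21 ± 0.21 (SE, adjusted p = 0.485). The lipid-handling genes held the largest change of all 33. Psap (chr10:60277628-60302600), which encodes the precursor of the saposins that present sphingolipids to their hydrolases, had 1524, 1536 and 1709 in total and 579, 266 and 475 in polysomal RNA. The change was -1.92 ± 0.29 (SE, adjusted p = 0.00608), 3.79-fold lower, and it was past the threshold under every setting but the one without total replicate 3 (adjusted p = 0.0502). Polysomal replicate 2 was the lowest, and no polysomal library came near the total ones. Asah1, for acid ceramidase, had 112, 104 and 112 in total and 63.5, 21.2 and 55.5 in polysomal RNA, a change of -1.35 ± 0.38 (SE, adjusted p = 0.0430). Its low value in polysomal replicate 2 set it apart from replicates 1 and 3, and the call was lost without any 1 total library (adjusted p = 0.138, 0.125 and 0.151). Lipa, Ppt1 and Npc2, for acid lipase, a palmitoyl thioesterase and a cholesterol carrier, were below total RNA in every polysomal library, at -1.05 ± 0.37, -0.84 ± 0.29 and -0.51 ± 0.17, and did not pass.

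The membrane proteins were uneven. Npc1, for the transporter that takes cholesterol from Npc2, had 67.1, 73.5 and 89.5 in total and 26.2, 18.4 and 29.1 in polysomal RNA, a change of -1.62 ± 0.23 (SE, adjusted p = 0.00485). Lamp2 had 231, 229.7 and 210.2 in total and 105, 32.3 and 114 in polysomal RNA, a change of -1.60 ± 0.45 (SE, adjusted p = 0.0409). For Lamp2, polysomal replicates 1 and 3 were about level and replicate 2 far lower, and the call was lost without any 1 total library or without polysomal replicate 1 (adjusted p = 0.131, 0.127, 0.134 and 0.0582). Lamp1 had 954, 948 and 1154 in total and 570.4, 455 and 653 in polysomal RNA, a change of -0.87 ± 0.20 (SE, adjusted p = 0.0219). Its call was lost without any 1 total library (adjusted p = 0.0951, 0.0945 and 0.112) and without polysomal replicate 1 (0.0507). Cd63 had 659, 603 and 529 in total and 643, 407 and 458 in polysomal RNA, -0.27 ± 0.22 (SE, adjusted p = 0.381). Polysomal replicate 1 of Cd63 lay among the total libraries, and the groups overlapped. Scarb2, for the receptor that brings beta-glucocerebrosidase to the lysosome, had -1.17 ± 0.38 (SE, adjusted p = 0.0635) and did not pass. Grn, which encodes progranulin, had 271, 269 and 329.8 in total and 113, 95.1 and 112 in polysomal RNA, a change of -1.43 ± 0.17 (SE, adjusted p = 0.00294) with tight values in both groups. Gnptg had 26.4, 28.4 and 32.04 in total and 20.00, 17.5 and 16.1 in polysomal RNA, a smaller change of -0.67 ± 0.18 (SE, adjusted p = 0.0391). Its call was lost without any 1 total library (adjusted p = 0.128, 0.156 and 0.159) and without polysomal replicate 1 or 3 (0.0554 and 0.0680). The limma fit with replicate number as a block lost it too (adjusted p = 0.107).

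**Figure D3:**
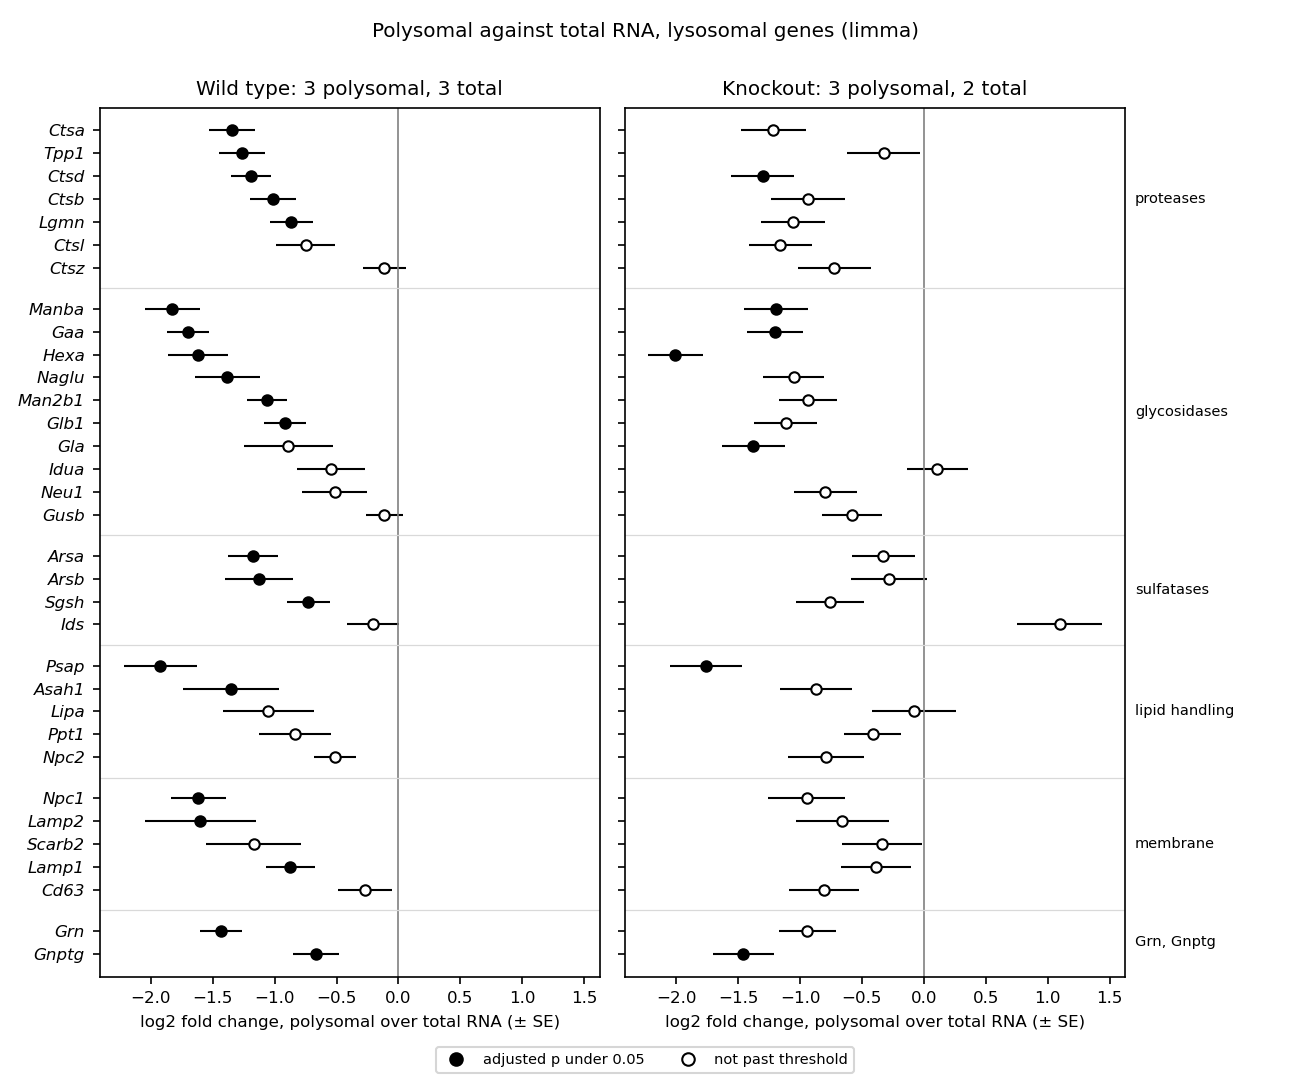
Log2 ratio of polysomal to total RNA (limma estimate, bars are ± SE) of each lysosomal gene, by role; filled circles passed an adjusted p of 0.05. In the wild type (left) all 33 lie below 0 and 21 are filled; in the knockout (right) 7 are filled, and Ids and Idua lie above 0.

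In the knockout, polysomal RNA held less of 7 of the 33 genes and more of 0, where 1.85% of the 12070 genes tested were lower and 0.911% higher. The 7 were Hexa, Psap, Gnptg, Gla, Ctsd, Gaa and Manba. The median of the 33 was -0.87 against 0.04 for all genes, 31 had a negative log2 fold change against 47.3% of all genes, and 24 had an unadjusted p under 0.05. Polysomal libraries lay below both total libraries for 25 members (18.3% of all genes) and above both for 2 (22.3% of all genes). By role, 4 of 10 glycosidases fell, 1 of 7 proteases, 0 of 4 sulfatases, 1 of 5 lipid genes, 0 of 5 membrane proteins, and Gnptg but not Grn. The median against total RNA was -1.10, -1.005 and -0.72 in polysomal replicates 1 to 3, with replicates 1 and 2 being the libraries rich in ribosomal RNA-like reads.

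Hexa changed most: it had 356 and 403 in total and 96.6, 83.3 and 102 in polysomal RNA, a change of -2.01 ± 0.22 (SE, adjusted p = 0.00770), 4.02-fold lower. Every polysomal value was far below both total values. Psap had 2099 and 1887 in total and 448, 654 and 687 in polysomal RNA, a change of -1.76 ± 0.29 (SE, adjusted p = 0.0242). Gnptg (chr17:25232224-25240328) had 51.1 and 62.7 in total and 21.4, 16.9 and 22.1 in polysomal RNA, a change of -1.46 ± 0.25 (SE, adjusted p = 0.0257). Gla, for alpha-galactosidase A, had 52.8 and 59.7 in total and 16.6, 22.8 and 24.4 in polysomal RNA, a change of -1.38 ± 0.26 (SE, adjusted p = 0.0316). None of these overlapped between the fractions. Ctsd had 1317 and 1341 in total and 523, 487 and 616 in polysomal RNA, a change of -1.30 ± 0.25 (SE, adjusted p = 0.0362). Gaa had 136 and 121 in total and 49.3, 54.7 and 62.2 in polysomal RNA, a change of -1.20 ± 0.23 (SE, adjusted p = 0.0320). Manba had 11.8 and 10.5 in total and 3.68, 4.88 and 4.48 in polysomal RNA, a change of -1.19 ± 0.26 (SE, adjusted p = 0.0494). For these 3 the fractions were apart as well. Just short of the threshold stood Ctsa with -1.22 ± 0.26 (SE, adjusted p = 0.0504) and Ctsl with -1.16 ± 0.25 (SE, adjusted p = 0.0519).

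Ids went the other way from the rest of the sulfatases. It had 78.8 and 56.3 in knockout total and 90.8, 167 and 195 in knockout polysomal RNA, 1.10 ± 0.35 (SE, adjusted p = 0.119). All 3 polysomal values were above both total values, and replicate 1 was the lowest of the 3. Idua, whose enzyme acts on the same glycosaminoglycans, had 5.21 and 5.02 in total and 5.31, 5.82 and 5.64 in polysomal RNA, 0.11 ± 0.25 (SE, adjusted p = 0.833). Its fractions did not overlap, but by a margin smaller than the SE. Over all genes, 760 of 11848 were lower in knockout polysomal RNA without polysomal replicate 1. Without replicate 2 it was 147 of 11882, and without replicate 3 it was 20 of 11872. The counts depended on single libraries. Without polysomal replicate 1, 17 members were called lower and 1 higher (Ids). It was 2 lower without replicate 2 and 1 lower without replicate 3. With 1 total library left out, the lone one left is assumed to vary like the polysomal libraries, so only sizes are given here. The median of the 33 was -0.87 without total replicate 1 and -0.95 without total replicate 2, against 0.04 and 0.05 for all genes. A setting chosen after seeing the data left out both libraries rich in ribosomal RNA-like reads. In it the median of the 33 was -0.72 against 0.05 for all genes. Replicate 3 was then the only polysomal library left. None of the 7 calls held under all 12 alternatives, and Hexa was lost only without either total library.

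Whether the shift between fractions differed between genotypes was tested in 1 fit of all 11 libraries. Of the 33 genes, 0 were called in either direction by limma, with 4 at an unadjusted p under 0.05, a count without a background. Among the 12460 genes tested, 0.201% were called higher in the knockout and 0.0482% lower. The 4 were Ids at 1.26 ± 0.41 (SE, adjusted p = 0.141), Gnptg at -0.83 ± 0.28 (SE, adjusted p = 0.146), Tpp1 at 0.90 ± 0.34 (SE, adjusted p = 0.184) and Arsa at 0.81 ± 0.31 (SE, adjusted p = 0.186), where a positive value means relatively more polysomal RNA in the knockout. The median of the 33 was 0.12 against 0.05 for all genes. edgeR on the recovered reads also called 0, and DESeq2 called Ids (1.31, adjusted p = 0.0411) and Gnptg (-0.84, adjusted p = 0.0463). Over all 12460 genes, DESeq2 called 490 higher and 462 lower, and edgeR 22 higher and 9 lower. Without knockout polysomal replicate 1, limma called Ids alone among the 33 (1.58, adjusted p = 0.0499). Over all 12376 genes in that setting, 111 were higher and 50 lower. Without the 3 polysomal libraries rich in ribosomal RNA-like reads, a setting chosen after seeing the data, the median of the 33 was 0.28 against 0.04 for all genes. In that setting knockout polysomal replicate 3 is the only library of its group and is assumed to vary like the other groups.

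Knockout and wild-type cells were then compared within each fraction, on 1 common scale for all 11 libraries. In total RNA, 6 members were higher in the knockout and 0 lower, where 4.71% of the 12460 genes tested were higher and 5.79% lower. The 6 were Gla, Hexa, Gnptg, Ctsb, Ctsd and Npc2, and 13 members had an unadjusted p under 0.05. The median of the 33 was 0.30 against -0.01 for all genes. The groups did not overlap for 18 members above (31.2% of all genes) and 4 below (33.2%). In bulk RNA, a change in the number of cells that hold a transcript and a change in its amount per cell cannot be told apart.

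Hexa (chr9:59539540-59565109) had common-scale values of 179, 169 and 193 in wild-type and 373 and 423 in knockout total RNA, a change of 1.14 ± 0.22 (SE, adjusted p = 0.00949). Gnptg had 25.3, 27.3 and 31.04 in wild-type and 53.6 and 65.7 in knockout total RNA, a change of 1.07 ± 0.21 (SE, adjusted p = 0.00868). Gla had 26.7, 24.5 and 26.3 in wild-type and 55.4 and 62.6 in knockout total RNA, a change of 1.16 ± 0.33 (SE, adjusted p = 0.0461). For all 3 genes both knockout libraries were well above the wild-type ones. Ctsb had 1135, 1126 and 1285 in wild-type and 2357 and 2163 in knockout total RNA, a change of 0.94 ± 0.22 (SE, adjusted p = 0.02001). Ctsd had 714, 699.6 and 822 in wild-type and 1381 and 1407 in knockout total RNA, a change of 0.91 ± 0.18 (SE, adjusted p = 0.00992). Npc2 had 935, 862 and 892 in wild-type and 1450.4 and 1755 in knockout total RNA, a change of 0.83 ± 0.24 (SE, adjusted p = 0.0464). In these 3 too, every knockout library was above every wild-type library. Ctsz went the other way from most proteases: it had 157, 162 and 190.1 in wild-type and 73.9 and 113 in knockout total RNA, -0.88 ± 0.26 (SE, adjusted p = 0.0541). Both knockout values were below all wild-type values, and the test was missed. With the scaling as deposited, which moved the median of all genes to -0.12, 4 members were higher and 1 lower, and the median of the 5 membrane proteins changed sign. None of the 6 calls held under all 18 alternatives, and Hexa and Gnptg were lost only without knockout total replicate 2. Between 2 and 3 were called higher without any 1 wild-type total library. Over all genes, 198 of 12436, 198 of 12442 and 167 of 12440 were higher without wild-type total replicates 1, 2 and 3. The median of the 33 was 0.19 without knockout total replicate 1 and 0.35 without replicate 2, against -0.04 and 0.00 for all genes. With either knockout total library left out, the lone one is assumed to vary like the other groups.

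In polysomal RNA, 4 members were higher in the knockout and 1 lower, where 4.82% of the 12460 genes were higher and 3.5% lower. The higher ones were Ids, Ctsb, Ctsd and Gaa, the lower one Ctsz, and 17 had an unadjusted p under 0.05. The median of the 33 was 0.52 against 0.00 for all genes. Knockout libraries lay above every wild-type library for 16 members (12.6% of all genes) and below for 1 (11% of all genes).

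Ids (chrX:70343069-70385834) had common-scale values of 71.7, 55.7 and 80.9 in wild-type and 93.1, 172 and 196 in knockout polysomal RNA, a change of 1.08 ± 0.27 (SE, adjusted p = 0.0313). Ctsb had 592, 522 and 648 in wild-type and 1030.5, 1018 and 1440.2 in knockout polysomal RNA, a change of 0.97 ± 0.19 (SE, adjusted p = 0.0101). Ctsd had 334, 319 and 321 in wild-type and 536, 502 and 618 in knockout polysomal RNA, a change of 0.76 ± 0.16 (SE, adjusted p = 0.0141). In each of them the 3 knockout libraries were above the 3 wild-type ones. Gaa had 29.8, 36.1 and 39.1 in wild-type and 50.5, 56.4 and 62.4 in knockout polysomal RNA, a change of 0.68 ± 0.17 (SE, adjusted p = 0.0302). In total RNA the same gene had 0.22 ± 0.19 (SE, adjusted p = 0.445). Ctsz (chr2:174427494-174439039) had 141, 192 and 141 in wild-type and 69.3, 42.1 and 52.6 in knockout polysomal RNA, a change of -1.53 ± 0.23 (SE, adjusted p = 0.00239). Its knockout values were 34.7% of the wild-type ones, and this call alone held under all 19 alternatives. Lamp2 had a larger estimate than any gene called higher but did not pass, at 1.22 ± 0.42 (SE, adjusted p = 0.102). Its wild-type values of 98.2, 32.9 and 107 overlapped with 97.9, 189.6 and 245 in the knockout, where replicate 1 was the lowest. Without knockout polysomal replicate 3, or with the 2 polysomal groups fitted alone, 0 members were called higher. Without knockout polysomal replicate 1 or without wild-type polysomal replicate 2 there were 7, without knockout polysomal replicate 2 there were 2, and without any 1 wild-type total library 2. Without the 3 libraries rich in ribosomal RNA-like reads the median of the 33 was 0.64 against -0.01 for all genes. That setting left 1 knockout polysomal library.

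**Figure D4:**
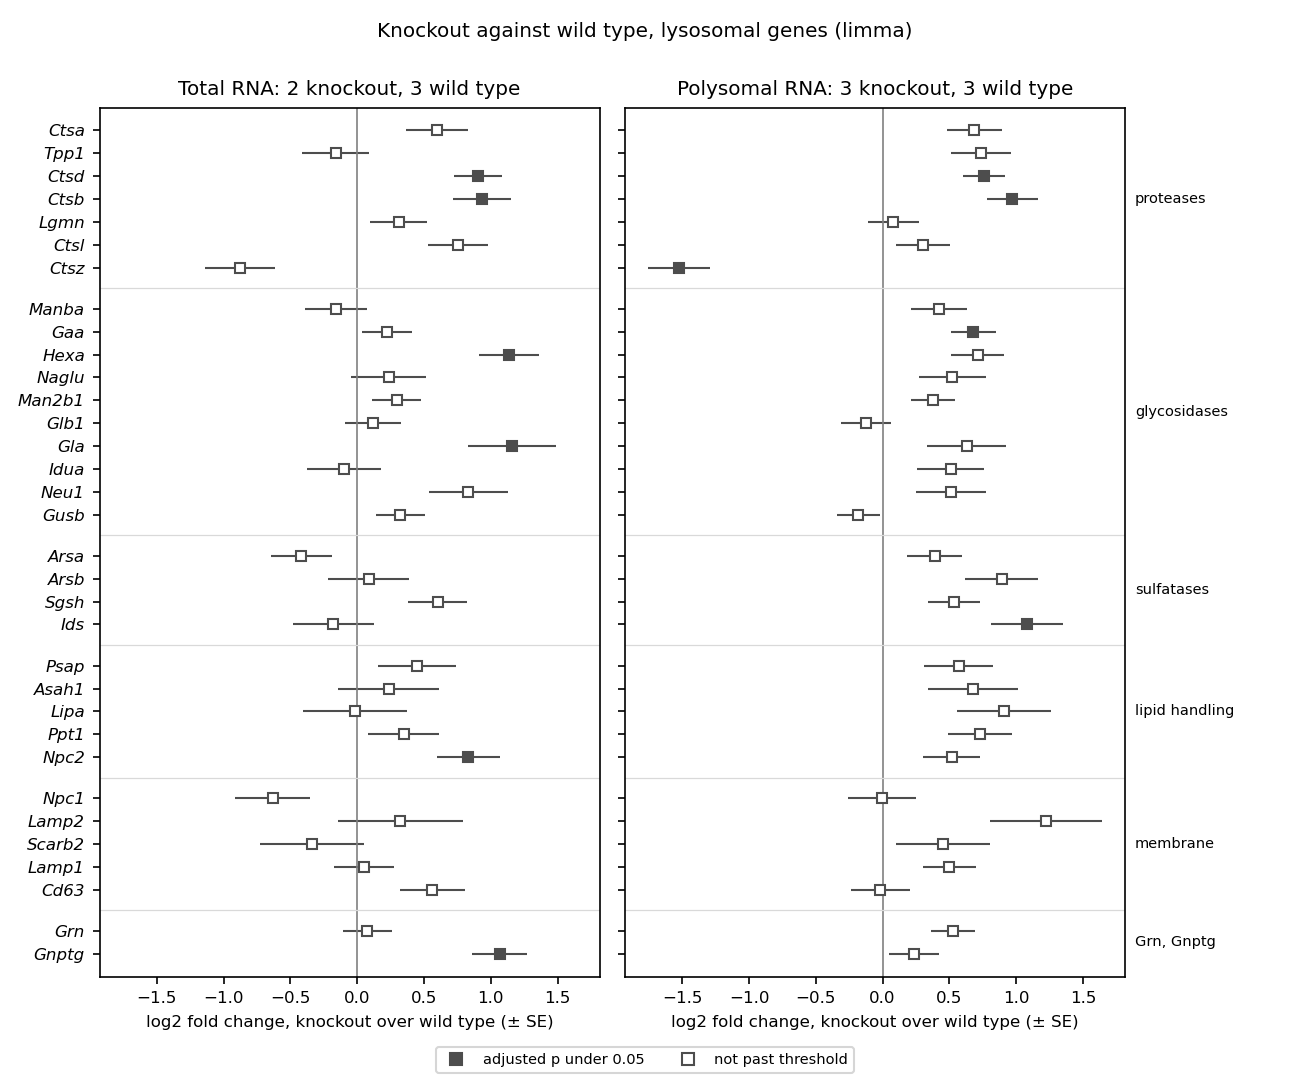
Log2 fold change of knockout over wild type (limma estimate, bars are ± SE) of each lysosomal gene in total RNA (left) and polysomal RNA (right), on the common scale; filled squares passed an adjusted p of 0.05. In total RNA 6 squares are filled, all above 0; in polysomal RNA 5 are filled, and Ctsz lies lowest in both panels.

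Lists of genes that work with the 33 had median log2 fold changes of -0.68 to 0.24 in wild-type polysomal RNA. Their counts are read against all genes tested, of which 13.8% were lower and 8.89% higher. Among the other lysosomal hydrolases, 9 of 29 tested were lower and 0 higher, with a median of -0.62. They included Man2b2 at -1.26 ± 0.19 (SE, adjusted p = 0.00633) and Dnase2a, the acid nuclease, at -1.25 ± 0.24 (SE, adjusted p = 0.0124). Of the subunits of the proton pump that acidifies the organelle, 8 of 18 were lower and 0 higher (median -0.68), with Atp6v1a at -1.88 ± 0.46 (SE, adjusted p = 0.0269) the largest. Of other lysosomal membrane proteins, 4 of 31 were lower and 0 higher (median -0.40), a smaller share than among all genes, among them Abca2 at -1.46 ± 0.18 (SE, adjusted p = 0.00344) and the cystine exporter gene Ctns at -1.22 ± 0.20 (SE, adjusted p = 0.00779). Delivery to lysosomes held the steepest falls of these lists. Igf2r, the large mannose-6-phosphate receptor, had 65.8, 64.4 and 65.3 in total and 11.5, 4.03 and 10.8 in polysomal RNA, a change of -2.87 ± 0.35 (SE, adjusted p = 0.00315). Cltc, the clathrin heavy chain, changed by -2.35 ± 0.40 (SE, adjusted p = 0.00839). In all, 9 of 31 gene models of this list were lower and 0 higher (median -0.42).

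In the list of MiT/TFE factors and lysosomal mTORC1 machinery, 3 of 24 were lower and 1 higher, both smaller shares than among all genes. Mtor, the kinase itself, fell, at -1.002 ± 0.16 (SE, adjusted p = 0.00666), while Rheb, its small GTPase activator, had 105, 109 and 92.5 in total and 199, 191 and 149.96 in polysomal RNA and rose, at 0.80 ± 0.18 (SE, adjusted p = 0.0199). Tfeb, Tfe3 and Mitf passed in none of the 5 comparisons. Tfe3, the highest of these factors by value, had 112, 116 and 129 in wild-type total and 117, 165 and 139.9 in wild-type polysomal RNA, and the groups overlapped. Of autophagy genes 6 of 33 were lower and 0 higher, with the receptor gene Calcoco1 at -2.14 ± 0.22 (SE, adjusted p = 0.00193). The machinery for entry into the endoplasmic reticulum, which the lysosomal hydrolases and membrane proteins pass through, had 1 of 29 lower and 4 higher (median 0.24), with the signal recognition particle genes Srp9 at 1.26 ± 0.24 (SE, adjusted p = 0.0119) and Srp19 at 1.23 ± 0.27 (SE, adjusted p = 0.0190).

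**Figure D5:**
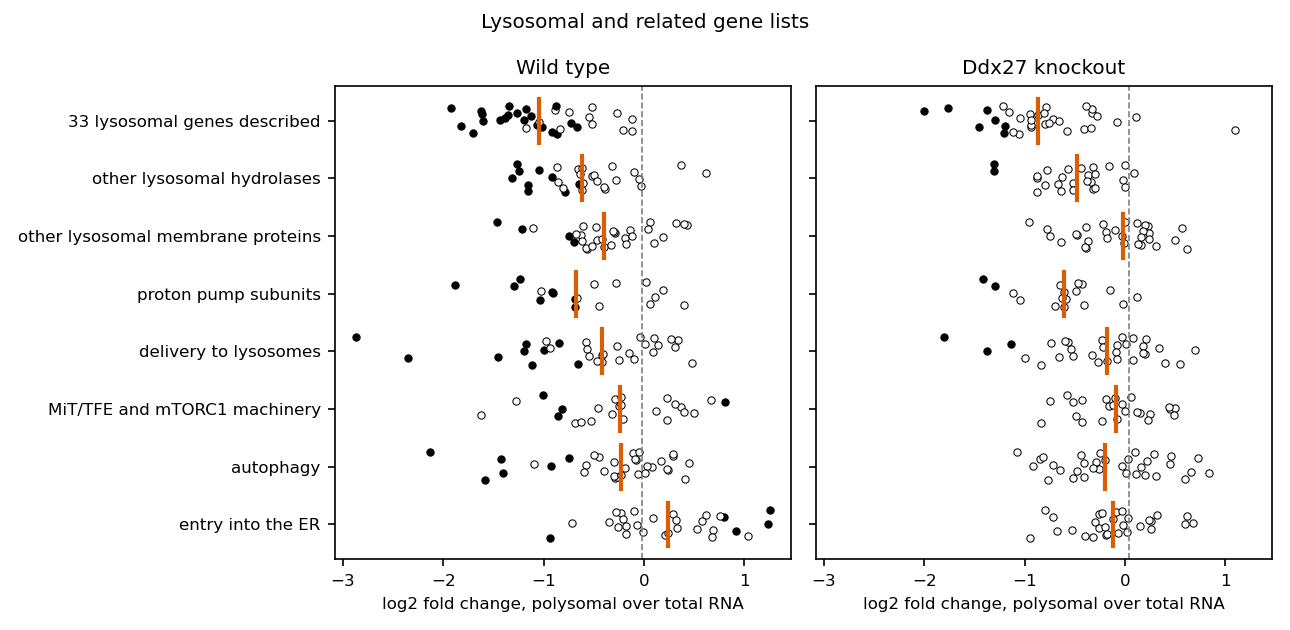
Log2 ratio of polysomal to total RNA for the 33 lysosomal genes and 7 related lists; each circle is 1 gene, filled where the adjusted p was under 0.05, the orange bar is the median of the list and the dashed line the median of all genes tested. In the wild type (left) the median falls from 0.24 for entry into the endoplasmic reticulum to -1.05 for the 33 genes; in the knockout (right) fewer circles are filled.

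In the knockout, where 1.85% of all genes were lower and 0.911% higher, 2 of 26 other hydrolases were lower in polysomal RNA (among them the dipeptidyl peptidase gene Dpp7 at -1.31 ± 0.26 (SE, adjusted p = 0.0366)), 2 of 17 proton pump subunits (Atp6ap1 and Atp6v1h) and 3 of 31 delivery genes (Igf2r, Cltc and Vps16). In the remaining lists 0 were called in either direction, of 30 other membrane proteins, 24 mTORC1 and MiT/TFE genes, 33 autophagy genes and 29 genes of entry into the endoplasmic reticulum. In total RNA, where 4.71% of all genes were higher and 5.79% lower in the knockout, it was higher than the wild type for 4 of 27 other hydrolases and 5 of 18 proton pump subunits and lower for 0 of either. Gm2a, for the activator of Hexa on ganglioside, had a change of 1.12 ± 0.23 (SE, adjusted p = 0.0111), and Dpp7 of 1.44 ± 0.27 (SE, adjusted p = 0.00689). Tpcn1, for a cation channel of the endolysosomal membrane, was the 1 gene called among 30 other membrane proteins and was lower, at -1.99 ± 0.26 (SE, adjusted p = 0.000706). Ap3s1 was the 1 of 31 delivery genes called, at 1.25 ± 0.23 (SE, adjusted p = 0.00693), and of 33 autophagy genes 4 were higher, led by Atg12 at 1.56 ± 0.23 (SE, adjusted p = 0.00182), and Wipi1 was lower. Of 29 genes of entry into the endoplasmic reticulum 2 were higher (Srp9 and Srp14), and of 24 mTORC1 and MiT/TFE genes 1 was lower (Depdc5). In polysomal RNA, where 4.82% of all genes were higher and 3.5% lower in the knockout, 5 of 27 other hydrolases were higher, led by Gm2a at 1.95 ± 0.20 (SE, adjusted p = 0.000194), and 3 of 30 other membrane proteins (Ctns at 1.48 ± 0.21 (SE, adjusted p = 0.00146)). Also higher were 2 of 18 proton pump subunits, 2 of 31 delivery genes (the sorting receptor gene Sort1 at 1.99 ± 0.32 (SE, adjusted p = 0.00339), and Ap3s1), 1 of 24 mTORC1 and MiT/TFE genes (Flcn) and 5 of 33 autophagy genes, with 0 lower in any of these lists. Of the 29 genes of entry into the endoplasmic reticulum 0 were higher and 1 was lower (Rpn1), with a median of -0.18. With the scaling as deposited, the median differences in total RNA of the delivery, mTORC1 and autophagy lists, which lay between 0.01 and 0.09, changed sign.

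The authors' own calls of the fractions are set beside these. At an FDR under 0.05 in the authors' deposited table, 23 of the 33 genes fell and 0 rose in polysomal RNA of the wild type, where 14.3% of its genes were lower and 13% higher. In the authors' deposited table for the knockout, 15 were lower and 1 higher, against 4.84% and 3.42% of its genes. That 1 gene was Ids, with a log2 fold change of 1.16 and an FDR of 0.0371 in the authors' deposited table.

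Markers of other cells that are rich in lysosomes were scarce. Of 10 macrophage and leukocyte markers, 2 were in the wild-type table and 3 in that of the knockout, while Ptprc, Adgre1, Laptm5, Aif1, Tyrobp, Itgam and Mrc1 were in neither. Their summed normalised read counts were 2.57 to 3.54 in the wild-type and 6.76 to 9.996 in the knockout libraries. These sums hold 2 genes in the wild type and 3 in the knockout, each on its own scale, so they do not compare the genotypes. Csf1r, the receptor for macrophage colony-stimulating factor, was higher in the knockout at 1.57 ± 0.27 (SE, adjusted p = 0.00503) in total and 1.27 ± 0.24 (SE, adjusted p = 0.00878) in polysomal RNA, and Lyz2 was listed for the knockout only. Myotube markers moved with the fractions: all 11 listed genes of that list were lower in wild-type polysomal RNA, and their summed values were 419 to 998 in total and 27.9 to 37.1 in polysomal libraries. In the knockout they summed to 182 to 220.2 in total and 22.9 to 26.0 in polysomal libraries, and 5 of 7 tested were lower in polysomal RNA. Myoblast markers were lower in wild-type polysomal RNA for 4 of 6 genes and in that of the knockout for 2 of 4 tested. Between genotypes, 4 of 5 were lower in the knockout in each fraction (Myod1, Des, Cdh15 and Itga7), and Myf5 was higher in total RNA.

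Fibroblast markers also moved with the fractions. In wild-type polysomal RNA 4 of 5 tested were lower (Dcn, Col3a1, Cd248 and Pdgfra) with a median of -2.01, further down than the -1.05 of the lysosomal genes, and in the knockout 2 of 4 (Dcn and Col3a1). Their summed values were 2107 to 2584 in total and 789.9 to 1326 in polysomal libraries of the wild type, and 1409 to 2014 and 654 to 779 in the knockout, with Lum and Thy1 in neither table. The wild-type sums hold 5 genes and the knockout sums 4, without Cd248, each on its own scale, so the genotypes are not compared by them. Of 6 osteoblast markers 2 were listed, and Sp7, Bglap, Alpl and Ibsp were in neither table. They summed to 5178 to 5874 in wild-type and 7959 to 10388 in knockout total RNA, each on the scale of its own table. Among them Spp1, for the secreted protein osteopontin, was lower in polysomal RNA of both genotypes and higher in knockout total RNA at 0.87 ± 0.25 (SE, adjusted p = 0.0458). Of 6 adipocyte markers 3 were listed (Adipoq, Fabp4 and Plin1 were not), with sums of 40.3 to 84.7 in the wild type and 67.3 to 82.7 in the knockout. Of these, Lpl and Cebpa were lower in wild-type polysomal RNA, and Cebpa was higher in knockout than in wild-type polysomal RNA at 1.78 ± 0.26 (SE, adjusted p = 0.00171). The part of these markers in the results on the lysosomal genes was not tested.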

How the data were processed

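The submitters' processing notes name the build mm10 and the tools STAR, HTSeq and edgeR; their roles and versions are not given in the sources used here. The authors deposited 1 table per genotype, scaled separately, whose signal columns hold normalised read counts. Each value was a whole read count times 1 factor per library (100% of values, within 0.001 reads). The deposited tables also hold gene lengths, the authors' log2 fold changes and log2 mean levels, and the authors' p-values and FDR. The design had assumed values in CPM, and its test was kept. Genes that reached 1 in at least 3 fitted libraries were tested with limma 3.58.1 (R 4.3.3) on log2(value + 1) with a mean-variance trend and Benjamini-Hochberg adjustment over all genes, at a threshold of 0.05. Fractions were compared within each genotype as deposited. The genotype comparisons and the difference came from 1 fit of 4 group means on a median-of-ratios scale. Alternatives used edgeR 4.0.16 and DESeq2 1.42.0 on the recovered counts, among others. The scripts were tested on simulated counts with the same spread in every library, which the polysomal libraries here do not have. That test does not show how the calls perform on these data. The 33 members and all lists were chosen with earlier results of these data known. Genes were named by a rule: members past the threshold (up to 12 per comparison), the 5 with the highest wild-type level per length, members that went against their role group, and up to 3 genes per related list; others named in single clauses were chosen after their values were seen. The added 1 shrinks the fold changes of low genes. Gene coordinates and promoters are RefSeq GRCm38.p6, the mm10 build. Values of 1 gene of the related lists are not reported here.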

Additional observations from a re-analysis of the deposited data

How the results depend on the processing

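The number of wild-type polysomal calls among the 33 genes (21 lower) was 19 with the replicate block, 26 with DESeq2 and 21 with edgeR. It ranged from 9 to 29 when 1 library was left out. Over all 12380 genes tested, 1705 were lower in the main fit, 1243 with the replicate block, 2215 with DESeq2 and 1607 with edgeR. Same-numbered wild-type libraries deviated together no more than others (correlations of 0.21, -0.22 and -0.07, against -0.31 to 0.26 for other numbers). With 3 libraries per group, such correlations cannot tell whether the numbers pair the samples. For the knockout fractions and the comparisons between genotypes no paired analysis was possible because the knockout columns carry no label numbers.

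The knockout fraction calls (7 lower, 0 higher) became 18 lower and 1 higher with DESeq2, and 19 and 1 with the length trend removed. Without both libraries rich in ribosomal RNA-like reads the median of the 33 was -0.72 against 0.05 for all genes. Leaving out 1 library gave 0 to 17 lower and 0 to 1 higher. Lipa turned positive without knockout total replicate 1 (0.32), without knockout polysomal replicate 1 (0.15) and without both rich libraries (0.32), and Arsb turned positive without both (0.16); with 1 library left out, Lipa ranged from -0.48 to 0.32. The genotype difference (0 calls) became 1 lower and 1 higher with DESeq2 and 5 higher without the 3 rich libraries, and leaving out 1 library gave 0 to 1 higher. In total RNA (6 higher, 0 lower in the knockout), 1 was lower with DESeq2, with the length trend removed, with scaling as deposited and with 2 groups fitted alone, which also gave 12 higher; leaving out 1 library gave 0 to 8 higher and 0 to 1 lower. In polysomal RNA (4 higher), there were 10 higher with DESeq2, 9 with the length trend removed, 0 with 2 groups fitted alone and 11 without the 3 rich libraries, and 0 to 7 when 1 library was left out. Over all genes in the knockout fractions, 223 of 12070 were lower in the main fit, 751 with DESeq2 and 778 with the length trend removed. For the genotype difference, 25 of 12460 genes were higher and 6 lower in the main fit, against 490 higher and 462 lower with DESeq2. Without the 3 rich libraries, calls of that difference over all genes also rose in both directions, so the 5 members have to be read against that rise. In total RNA the knockout was higher for 587 of 12460 genes, and for 2201 of 11989 with 2 groups fitted alone. In polysomal RNA it was higher for 601 of 12460, with DESeq2 for 973 and with the length trend removed for 833. With 2 groups fitted alone it was 196 of 12184, and with 1 library left out 256 to 903. The cause of these shifts was not tested. Settings that leave out libraries rich in ribosomal RNA-like reads were chosen after seeing the data. They leave 1 knockout polysomal library, as leaving out 1 knockout total library leaves 1 of total RNA, and the lone library is assumed to vary like the other groups. With 2 or 3 libraries per group, a difference that missed the threshold is not shown to be absent.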
